A study of Homo sapiens with 2 samples.

Results

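IFITM1, IFITM2 and IFITM3, BST2, IFI27, IFI6 and SAMHD1 are interferon-responsive genes of the first line of defence against viruses, 6 of them coding for proteins that sit in membranes. They were found by symbol in the gene list of the study, where all 7 were present among 36601 genes. Single-cell transcriptomes were measured in colon organoids derived from the human iPS cell line 1383D6, and the study's title describes a model of ulcerative colitis. One library came from untreated organoids (CNT) and 1 from organoids exposed for 8 days to the cytokines IFN-γ, TNF-α and IL-1β together (3CK), at doses not given in the sources used here. Both groups had received Activin A at 100 ng/mL with Y-27632 from day 0 to 3 and FGF2 at 100 ng/mL until day 7. They were then embedded in Matrigel and given EGF at 20 ng/mL, Forskolin at 30 µM, PD98059 at 20 µM, 5-Aza-2'-Deoxycytidine (an inhibitor of DNA methylation) at 5 µM, and 0.5 µM of a further agent whose name is cut short in the labels. The untreated cells had therefore also been through these agents, and both libraries stem from 1 cell line. Each group is 1 library, so nothing could be tested against a spread between cultures, and each interval given is a 95% interval that covers counting error alone.

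The IFITM proteins are small membrane proteins that hinder the fusion of enveloped viruses with the cell, IFITM1 mainly at the cell surface and IFITM2 and IFITM3 mainly in endosomes and lysosomes. BST2, also called tetherin, holds budding virus particles at the plasma membrane. IFI27 and IFI6 are small hydrophobic proteins of 1 family found on mitochondria and the endoplasmic reticulum, and SAMHD1 is a soluble enzyme that breaks down the deoxynucleotides which viruses need for copying DNA. Interferon-γ acts on gamma-activated sites, whose core is TTCNNNGAA. Type I interferons act on interferon-stimulated response elements, built on a GAAA, any 2 bases and another GAAA.

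On the GRCh38 build (GENCODE annotation), the 3 IFITM genes lie in 1 cluster on chromosome 11: IFITM2 at chr11:303655-309397 and IFITM1 at chr11:310041-315272 on the plus strand, IFITM3 at chr11:319676-329475 on the minus strand, 25821 bases from end to end. BST2 lies at chr19:17402939-17405630 (minus), IFI27 at chr14:94104836-94116695 (plus), IFI6 at chr1:27666064-27672212 (minus) and SAMHD1 at chr20:36890229-36951893 (minus). Promoter windows from 250 bases before to 50 bases after the start were taken from RefSeq (GRCh38.p14) for 6 of the 7 genes, all but IFITM2. This GAAA pair (the letters GAAA, any 2 bases, GAAA), read on both strands, occurred in the windows of IFITM1, IFITM3, BST2, IFI27 and IFI6, and in 3.57% of all 34796 promoter windows of the same length. TTCNNNGAA occurred in the windows of IFITM1, BST2 and IFI27, and in 7.67% of all windows. The SAMHD1 window held neither. A match describes letters only, and nothing was measured here on binding. The stretches with a GAAA pair are shown because 5 genes on 4 chromosomes, all higher in 3CK, carry it in 2 or 3 copies. They are printed 5′ to 3′ along the gene's strand, with each GAAA pair or its reverse complement in capitals, from chr11:313970-314073 (plus, IFITM1), chr11:320856-320942 (minus, IFITM3), chr19:17405715-17405790 (minus, BST2), chr14:94110598-94110680 (plus, IFI27) and chr1:27672246-27672378 (minus, IFI6).
IFITM1: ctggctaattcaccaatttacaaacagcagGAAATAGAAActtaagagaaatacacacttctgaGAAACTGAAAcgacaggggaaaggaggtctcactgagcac
IFITM3: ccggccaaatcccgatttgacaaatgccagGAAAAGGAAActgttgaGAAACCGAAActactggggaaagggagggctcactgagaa
BST2: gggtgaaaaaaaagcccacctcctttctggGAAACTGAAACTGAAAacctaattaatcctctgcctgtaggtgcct
IFI27: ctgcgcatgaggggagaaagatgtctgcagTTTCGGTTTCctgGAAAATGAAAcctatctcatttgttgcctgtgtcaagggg
IFI6: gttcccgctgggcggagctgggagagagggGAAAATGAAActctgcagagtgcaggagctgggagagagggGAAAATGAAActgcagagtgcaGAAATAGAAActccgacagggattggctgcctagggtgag
The 2 copies in BST2 overlap each other, and the first copy in IFI27 is on the opposite strand. A TTCNNNGAA overlapped a GAAA pair in IFITM1, BST2 and IFI27. In IFI6 the first 2 copies are the same 10 letters, GAAAATGAAA, which IFI27 also carries.

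After filtering, 2487 CNT cells with 101831571 unique molecular identifiers (UMIs, counted molecules) and 1398 3CK cells with 91860414 UMIs remained, and the libraries shared 0 barcodes. Cells with at least 2 EPCAM UMIs per 10000 formed the epithelial class, 1660 in CNT and 1016 in 3CK. Cells with at least 5 UMIs per 10000 from COL1A1, COL1A2 and COL3A1 together and under 1 from EPCAM formed the mesenchymal class, 574 in CNT and 124 in 3CK. Genes outside that rule followed the class names: DCN was at 1210 CPM (UMIs per 1000000) in mesenchymal and 51.2 in epithelial CNT cells, and TTR at 1408 and 64857. The epithelial markers KRT18 and KRT8 did not. KRT18 was at 4930 CPM in mesenchymal and 4303 in epithelial CNT cells, and KRT8 at 3217 and 3111. TTR, APOA1 and other liver-type transcripts led the epithelial class, which the labels call colon epithelium. The summed collagens that define the mesenchymal class were themselves lower in 3CK, so the 124 cells there are those that still passed. In the shallowest barcodes 1 UMI was enough to meet a class limit. Under 10000 UMIs were 647 epithelial and 263 mesenchymal cells in CNT, and 286 and 18 in 3CK. The leukocyte markers PTPRC and CD3E were each under 1 CPM over all kept cells of both libraries, although PTPRC stood at 3.62 and CD68 at 91.4 CPM in 3CK mesenchymal cells. Members' counts for near-identical genes are uncertain: of the 441 stretches of 60 bases in the last 500 bases of the transcript, IFITM1 and IFITM3 each shared 82 (18.6%), and IFITM2 40 (9.07%), with another IFITM gene. IFI6 shared 157 (35.6%) with LINC02574, which had 9 UMIs in CNT and 155 in 3CK. SAMHD1 shared 18 (4.08%) with HIPK1-AS1, and BST2 and IFI27 shared 0.

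In the sum over all kept cells, 6 of the 7 genes stood at least 2-fold higher in 3CK than in CNT, 0 stood 2-fold lower, and IFITM2 was nearly level. Of the 10259 genes that reached 10 CPM in either library, 6.43% met the same difference upward and 7.34% downward. The median log2 ratio of the 7 genes was 3.00, against 0.01 for all those genes, and together they made up 1080.35 CPM without and 8100.2 CPM with cytokines. The assay counts the 3' end of each transcript once, so levels are not scaled by length and can be set side by side, apart from the shared sequence above.

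The IFITM genes spanned the whole range. IFITM1 had 1228 UMIs without and 19401 with cytokines, which is 12.1 CPM (11.4 to 12.8, exact Poisson) and 211 CPM (208 to 214), a log2 ratio of 4.13 (4.05 to 4.21), the largest of the 7. IFITM3 went from 314 CPM (311 to 318) to 1431 CPM (1423 to 1438), a log2 ratio of 2.19. IFITM2, their neighbour, stood at 40.7 CPM (39.5 to 42.0) and 39.3 CPM (38.0 to 40.6), a log2 ratio of -0.05 (-0.12 to 0.01), which turned to 0.04 with trimmed mean of M values (TMM) scaling. The cluster thus held both the largest and the smallest response of the 7 genes. The share of the 3 genes' common sequence counted for each cannot be told from these counts.

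BST2 went from 86.6 CPM (84.8 to 88.5) to 818 CPM (812 to 824), a log2 ratio of 3.24. IFI27, the most abundant of the 7 in both libraries, was at 521 CPM (516 to 525) and 4163 CPM (4149 to 4176), a log2 ratio of 3.00, and ranked 16 among all genes in 3CK against 237 in CNT. IFI6 was at 97.8 CPM (95.9 to 99.7) and 1389.7 CPM (1382 to 1397), a log2 ratio of 3.83. SAMHD1, the one soluble enzyme of the set, was the scarcest in CNT, at 8.10 CPM (7.56 to 8.67), and reached 48.9 CPM (47.5 to 50.4), a log2 ratio of 2.59. In CNT the order ran IFI27, IFITM3, IFI6, BST2, IFITM2, IFITM1 and SAMHD1. In 3CK it ran IFI27, IFITM3, IFI6, BST2, IFITM1, SAMHD1 and IFITM2. IFITM1 and SAMHD1 thus both stood above IFITM2 in 3CK and below it in CNT. Neighbours in these orders differed by more than their counting intervals, but no spread between cultures is known.

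The sums over all cells mix 2 classes whose shares differed between the libraries. Epithelial cells made up 66.7% (64.9 to 68.6, exact binomial) of kept cells in CNT and 72.7% (70.3 to 75.0) in 3CK, and mesenchymal cells 23.1% (21.4 to 24.8) and 8.87% (7.43 to 10.5). In such sums, fewer cells of a class and less RNA per cell cannot be told apart, so the classes were then taken separately.

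In untreated organoids all 7 genes were lower in epithelial than in mesenchymal cells, 6 of them by at least 2-fold. Of the 10891 genes that reached 10 CPM in either class, 21.1% met that difference downward and 12.2% upward. The median log2 ratio of epithelial over mesenchymal cells was -2.83 for the 7 genes and -0.28 for all those genes.

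BST2 showed the widest gap, at 23.8 CPM (22.7 to 24.9) in epithelial and 332 CPM (324 to 340) in mesenchymal cells, a log2 ratio of -3.80 (-3.88 to -3.73). The 3 IFITM genes lay close together in this ratio despite different levels. IFITM1 was at 5.46 CPM in epithelial and 38.8 in mesenchymal cells (-2.83), IFITM2 at 15.9 and 133 (-3.06), and IFITM3 at 134 and 995 (-2.89). IFI6 was at 71.0 and 198 CPM (-1.48), SAMHD1 at 6.24 and 16.0 CPM (-1.36), and IFI27 at 439 and 829 CPM (-0.92), the only one of the 7 short of 2-fold. The genes could therefore be described as 2 sets, the IFITM genes with BST2 at a wide gap, and IFI27, IFI6 and SAMHD1 at a narrower one.

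Free RNA bears on the low epithelial levels, since mesenchymal transcripts not expected in epithelial cells were also counted there. In CNT the epithelial level was 10.1% of the mesenchymal one for LUM, 4.23% for DCN and 2.92% for POSTN, which code for proteins of the connective tissue matrix. For the members it was 7.17% for BST2, 12.0% for IFITM2, 13.4% for IFITM3, 14.1% for IFITM1, 35.8% for IFI6, 39.0% for SAMHD1 and 52.9% for IFI27. BST2 thus lay among the matrix transcripts, the IFITM genes just above the highest of them, and IFI27, IFI6 and SAMHD1 well above. Of the epithelial cells in CNT, 497 also had at least 5 collagen UMIs per 10000, against 49 in 3CK. Their median depths were 1087 and 1561 UMIs, and at such depths 1 collagen UMI or 1 EPCAM UMI meets the limit. Without the collagen-positive cells the percentages were 7.34 for LUM, 0.947 for DCN and 0.902 for POSTN. They were 3.82 for BST2, 8.11 for IFITM2, 9.08 for IFITM3 and 11.2 for IFITM1. IFI6 was at 33.1, SAMHD1 at 39.1 and IFI27 at 48.7. BST2 still lay between DCN and LUM, and the IFITM genes above LUM. LUM and DCN had similar mesenchymal levels (1279 and 1210 CPM) but unlike percentages, so the placement depends on the transcript chosen. Whether epithelial cells make LUM was not tested. The part of free RNA and of mixed droplets in the epithelial levels of BST2 and the IFITM genes was not tested.

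Some of these ratios depend on how cells were weighted. Giving every cell equal weight, which lets shallow barcodes count as much as deep ones, moved the log2 ratio to -2.10 for BST2, -2.04 for IFITM2, -1.95 for IFITM3, -1.93 for IFITM1 and -0.73 for IFI6. SAMHD1 was at -0.97 with TMM factors, BST2 at -4.71 without the collagen-positive epithelial cells, and IFI27 past 2-fold there (-1.04), with the stricter cell filter (-1.02) and without barcodes rich in MALAT1 (-1.01).

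Within epithelial cells, all 7 genes were higher in 3CK, 6 of them by at least 2-fold and 0 lower, against 7.88% of 9786 genes higher and 7.62% lower. The median log2 ratio was 3.40 for the 7 and 0.07 for all those genes, and their summed level went from 695 to 8373 CPM. IFITM1 led, from 5.46 CPM (4.95 to 6.01) to 225 CPM (221 to 228), a log2 ratio of 5.36 (5.22 to 5.51). It stood at rank 50 of 9786. BST2 followed, from 23.8 to 745 CPM (739 to 751), a log2 ratio of 4.97 (4.90 to 5.04). IFI6 went from 71.0 to 1387 CPM (4.29), IFITM3 from 134 to 1413 CPM (3.40), IFI27 from 439 to 4524 CPM (3.37), and SAMHD1 from 6.24 to 48.7 CPM (2.96, interval 2.83 to 3.11). The size of the ratio did not follow the untreated level, since IFITM1 and SAMHD1, the scarcest in CNT epithelium, stood first and sixth among the 7. IFITM2 was at 15.9 CPM (15.0 to 16.8) and 29.2 CPM (28.0 to 30.5), a log2 ratio of 0.88 (0.78 to 0.99), short of 2-fold.

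Without collagen-positive epithelial cells the log2 ratio became 5.88 for BST2, 5.69 for IFITM1 and 1.43 for IFITM2, which was past 2-fold there and with doubled class limits (1.01). With equal weight per cell it became 3.73 for BST2, 4.72 for IFITM1, 2.69 for IFITM3 and 0.26 for IFITM2.

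Within mesenchymal cells, 5 of the 7 genes were at least 2-fold higher in 3CK and 0 lower, against 4.8% and 9.59% of 10272 genes, and the median log2 ratio was 1.78, against -0.12 for all those genes. IFI6 had the largest ratio, from 198 CPM (192 to 205) to 1224 CPM (1201 to 1247), 2.63 on the log2 scale. IFITM1 went from 38.8 to 179.9 CPM (2.21), BST2 from 332 to 1251 CPM (1.92), IFI27 from 829 to 2849 CPM (1.78) and SAMHD1 from 16.0 to 44.4 CPM (1.48). IFITM3, already near 1 UMI per 1000 in CNT, went from 995 CPM (981 to 1009) to 1850.2 CPM (1822 to 1878), a log2 ratio of 0.89. With TMM factors that ratio was 1.07 and with equal weight per cell 1.20, both past 2-fold. IFITM2 was lower in 3CK, at 93.4 CPM (87.2 to 99.8) against 133 CPM (128 to 138), a log2 ratio of -0.51 (-0.62 to -0.39), within 2-fold. IFITM2 thus lay in opposite directions in the 2 classes, higher in epithelial and lower in mesenchymal 3CK cells.

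**Figure D1:**
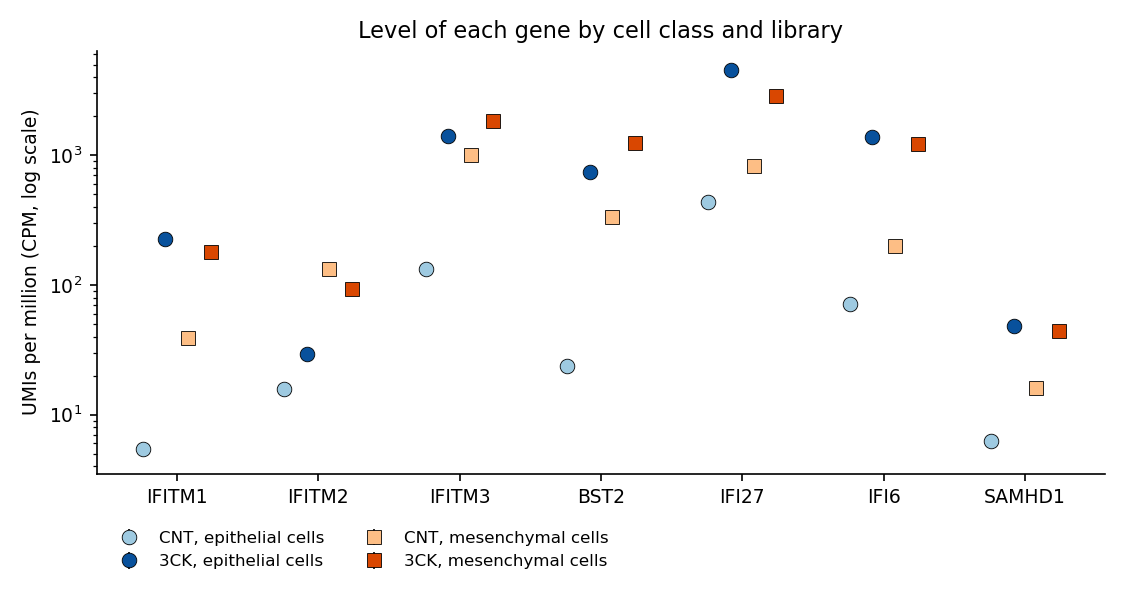
Level of the 7 genes in CPM (log axis) in epithelial (circles) and mesenchymal (squares) cells of CNT (light) and 3CK (dark), 1 library each, with 95% Poisson intervals for counting error. In CNT each gene is higher in mesenchymal cells. In 3CK the classes lie within 2-fold of each other except for IFITM2, at 29.2 and 93.4 CPM.

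The difference between the 2 responses was larger than counting error for all 7 genes, with the epithelial response the larger in each. Epithelial minus mesenchymal log2 response was 3.15 for IFITM1 (interval 2.96 to 3.34), 3.05 for BST2 (2.97 to 3.13) and 2.51 for IFITM3 (2.46 to 2.55). It was 1.66 for IFI6, 1.58 for IFI27, 1.49 for SAMHD1 and 1.39 for IFITM2. With equal weight per cell, an alternative added after the data were seen for this difference, it was 2.21 for IFITM1, 1.35 for BST2, 1.49 for IFITM3, 0.88 for IFI6, 1.00 for IFI27, 0.82 for SAMHD1 and 0.76 for IFITM2. Without collagen-positive epithelial cells it was 3.96 for BST2. Over the 8635 genes measured in both classes the median of this difference was 0.18, with 11.3% above 1. For comparison IFIT3, a type I interferon target, was at 1.49 (1.34 to 1.65).

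In 3CK the gap between the classes had narrowed or turned for every gene, which restates the same difference between the 2 responses. Of the 7, only IFITM2 remained at least 2-fold lower in epithelial cells, and 0 were 2-fold higher there, against 15% of 10317 genes lower and 13.3% higher. It was at 29.2 CPM in epithelial and 93.4 CPM in mesenchymal cells, a log2 ratio of -1.67 (-1.79 to -1.56). BST2 (745 and 1251 CPM, -0.75) and IFITM3 (1413 and 1850.2 CPM, -0.39) were still lower in epithelial cells by less than 2-fold. IFI27 was higher there (4524 and 2849 CPM, 0.67), as were IFITM1 (225 and 179.9 CPM, 0.32) and IFI6 (1387 and 1224 CPM, 0.18). SAMHD1 did not differ beyond counting error (48.7 and 44.4 CPM, 0.13, interval -0.02 to 0.28), and its ratio was -0.30 with equal weight per cell. In 3CK the mesenchymal level was 1.22% of the epithelial one for TTR and 1.81% for APOA1, against 63.0% for IFI27, the lowest of the 7.

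**Figure D2:**
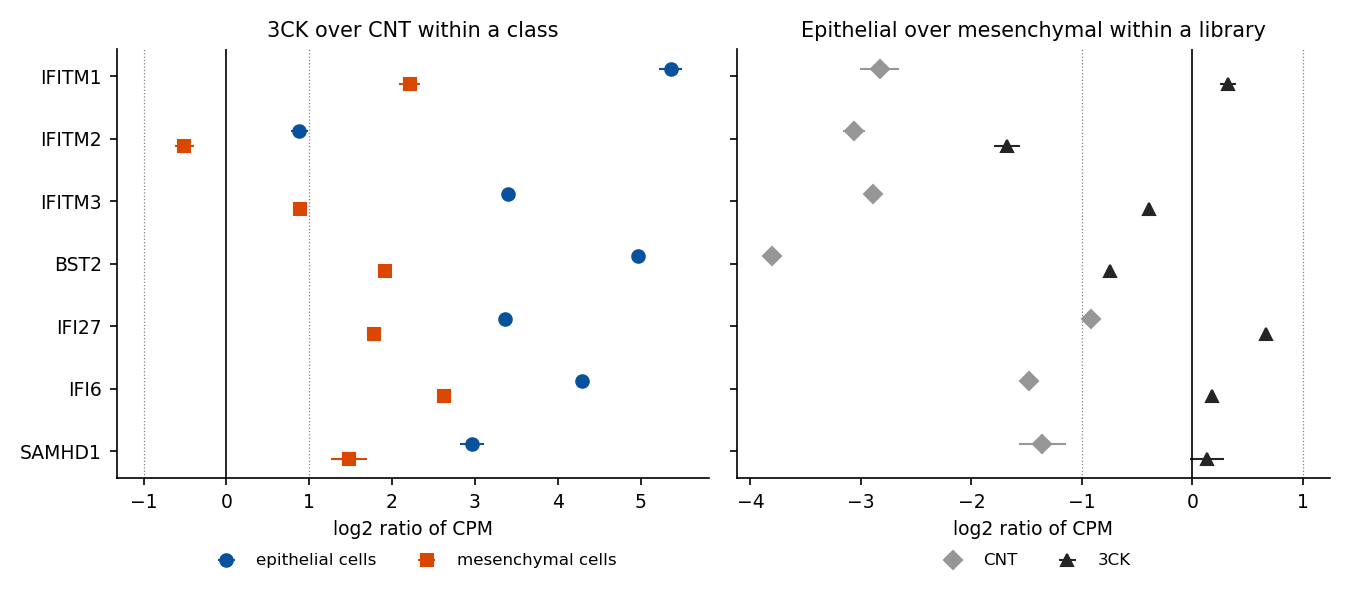
Log2 ratios of CPM for the 7 genes with 95% intervals for counting error, on the left 3CK over CNT in epithelial (circles) and mesenchymal (squares) cells, on the right epithelial over mesenchymal cells in CNT (diamonds) and 3CK (triangles). Dotted lines mark 2-fold. Each circle lies to the right of its square, and so, by the same numbers, each triangle lies to the right of its diamond.

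Cells that met neither rule, 253 in CNT and 258 in 3CK, carried the same genes. IFITM1 was at 8.15 CPM in those CNT cells and 159 CPM in those of 3CK, BST2 at 82.4 and 909 CPM, and IFI27 at 548 and 3104 CPM. IFITM2 was at 55.1 CPM (49.3 to 61.3) and 56.2 CPM (52.1 to 60.5), level within counting error. SAMHD1 was at 5.99 and 53.6 CPM. In 3CK these cells had VIM at 2376 CPM, COL1A1 at 64.1 CPM and EPCAM at 76.3 CPM, with KRT18 at 5129 CPM and TTR at 2941 CPM. Such pooled levels do not tell which cells carried them or which class limit was missed.

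The share of cells with at least 1 UMI was compared after thinning each cell to 5000 UMIs, which left out 598 of 1660 epithelial CNT cells, 240 of 1016 in 3CK, 254 of 574 mesenchymal CNT cells and 17 of 124 in 3CK. In epithelial cells, 6 of the 7 genes had a share at least 10 percentage points higher in 3CK and 0 lower, against 7.42% and 4.54% of the 9786 genes that reached 10 CPM. BST2 was detected in 4.99% of 1062 epithelial CNT cells (3.76 to 6.48, exact binomial) and in 82.99% of the 776 from 3CK (80.2 to 85.6), a difference of 78.0 points (Newcombe interval 74.8 to 80.7). IFI6 went from 16.2% to 90.5%, IFITM3 from 29.1% to 93.2%, IFI27 from 36.4% to 97.2% and IFITM1 from 1.22% to 57.1%. These 5 genes therefore had UMIs in most treated epithelial cells even at this depth. SAMHD1 went from 3.01% to 22.4% (19.5 to 25.5), and IFITM2 from 6.59% to 11.7% (9.55 to 14.2). Without thinning the CNT and 3CK shares were 17.5% and 87.2% for BST2, 11.3% and 73.1% for IFITM1, and 18.7% and 66.0% for SAMHD1, at median depths of 37785 and 72198 UMIs.

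Low shares in untreated epithelial cells have to be set against matrix transcripts not expected there. After the same thinning, LUM was found in 27.3% of CNT epithelial cells (24.6 to 30.1), DCN in 9.13% and POSTN in 3.39%, and in mesenchymal cells in 83.8%, 83.8% and 44.7%. The median depths before thinning were 67290 UMIs in the epithelial cells used and 52742 in the mesenchymal ones. The shares of IFITM1, IFITM2, BST2, SAMHD1 and IFI6 in CNT epithelium lay below that of LUM, and that of IFITM3 within its interval, so these shares alone are not read as expression. LUM itself was at 1279 CPM in CNT mesenchyme, against 198 CPM for IFI6 and 16.0 CPM for SAMHD1, whose epithelial levels were a larger percentage of the mesenchymal level than that of LUM. IFI27, at 36.4% (33.5 to 39.4), lay above LUM. Against DCN, IFITM3 (29.1%) and IFI6 (16.2%) also lay above, so the reading depends on the transcript chosen. In 3CK epithelial cells the matrix transcripts were found in 9.54% (LUM), 3.22% (DCN) and 0.773% (POSTN). There IFITM2, at 11.7%, was within reach of LUM's interval (7.56 to 11.8), and the other 6 genes lay above it.

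In mesenchymal cells of CNT the members were found more widely. IFITM3 was detected in 81.6% of 320 cells (76.9 to 85.7), IFI27 in 54.1%, BST2 in 52.8%, IFITM2 in 39.4%, IFI6 in 31.6%, IFITM1 in 19.1% and SAMHD1 in 7.81%. Of 107 mesenchymal cells in 3CK, 97.2% had IFI27, 96.3% IFITM3, 95.3% BST2, 90.7% IFI6, 54.2% IFITM1 and 21.5% SAMHD1, these 6 at least 10 points higher, against 7.16% of 10272 genes higher and 6.13% lower. IFITM2 was found in 29.9% (21.4 to 39.5), a difference of -9.47 points whose interval (-19.0 to 1.14) holds 0. IFI27, IFI6, IFITM1 and SAMHD1 were within 3 points of the epithelial shares in 3CK, and the interval of each of those differences held 0.

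**Figure D3:**
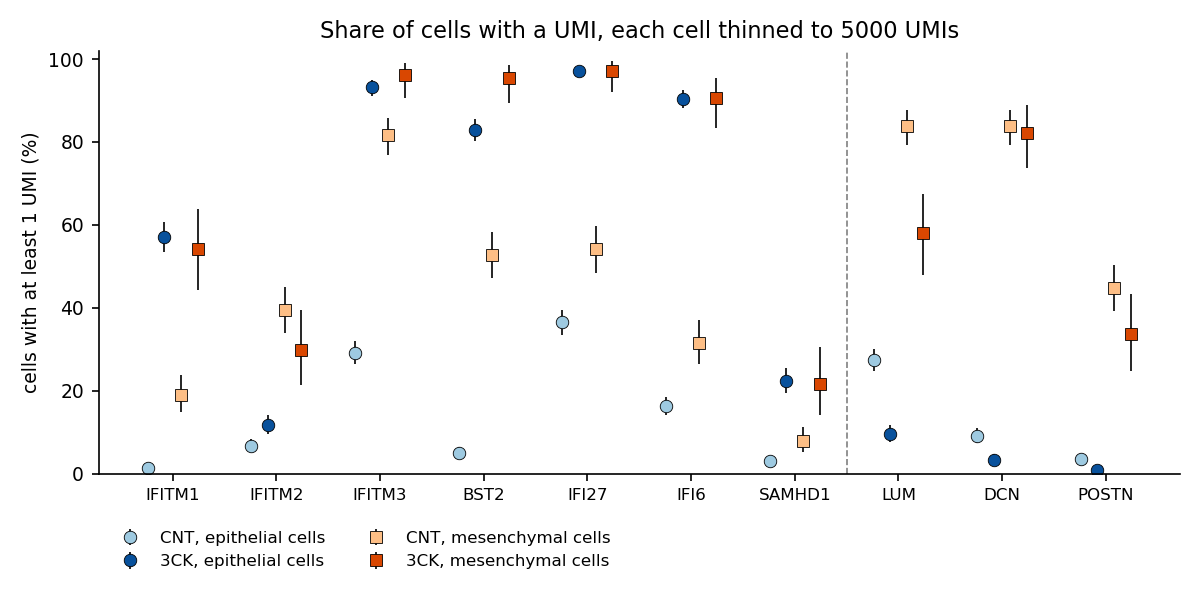
Percent of cells with at least 1 UMI after thinning to 5000 UMIs, for the 7 genes and, right of the dashed line, 3 matrix transcripts, with exact binomial intervals, by class (circles epithelial, squares mesenchymal) and library (light CNT, dark 3CK). In CNT epithelial cells LUM stands at 27.3%, above 5 of the 7 genes, while BST2 stands at 4.99% in CNT and 82.99% in 3CK.

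How evenly the cells of a class carried each gene was read from cells with at least 10000 UMIs. In CNT epithelium the genes were concentrated in few cells. The top 10% of 1013 cells held 92.2% of the BST2 UMIs, 81.0% of those of IFITM1, 77.3% of IFI6 and 69.4% of IFI27. Low counts alone raise this measure, and 82.4% of these cells had 0 UMIs of IFITM1 and 78.1% of BST2. Collagen-positive epithelial cells were also among them. The median cell had 0 UMIs per 10000 of IFITM1, IFITM2, BST2 and SAMHD1, 0.08 of IFI6, 0.31 of IFI27 and 0.45 of IFITM3. In 3CK epithelium the top 10% of 730 cells held 30.5% of the BST2 UMIs, 28.8% of IFITM1, 31.0% of IFI6 and 28.1% of IFI27, and the medians were 6.23, 1.91, 10.7 and 40.1 UMIs per 10000. Most treated epithelial cells thus carried these genes, at levels the bulk of untreated cells did not reach. IFITM1 was above the 95th percentile of CNT epithelial cells in 87.0% of the 730 (84.3 to 89.3), BST2 in 86.0%, IFI6 in 85.6%, IFITM3 in 81.4%, IFI27 in 73.0%, SAMHD1 in 54.2% and IFITM2 in 12.6%. In mesenchymal cells, 106 in 3CK and 311 in CNT, the same measure gave 55.7% for IFITM1, 52.8% for IFI6, 51.9% for BST2, 30.2% for IFI27, 26.4% for IFITM3, 16.0% for SAMHD1 and 0.943% for IFITM2. This share was lower in the mesenchymal class for each gene, which for IFITM2 goes with its lower level in 3CK there.

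**Figure D4:**
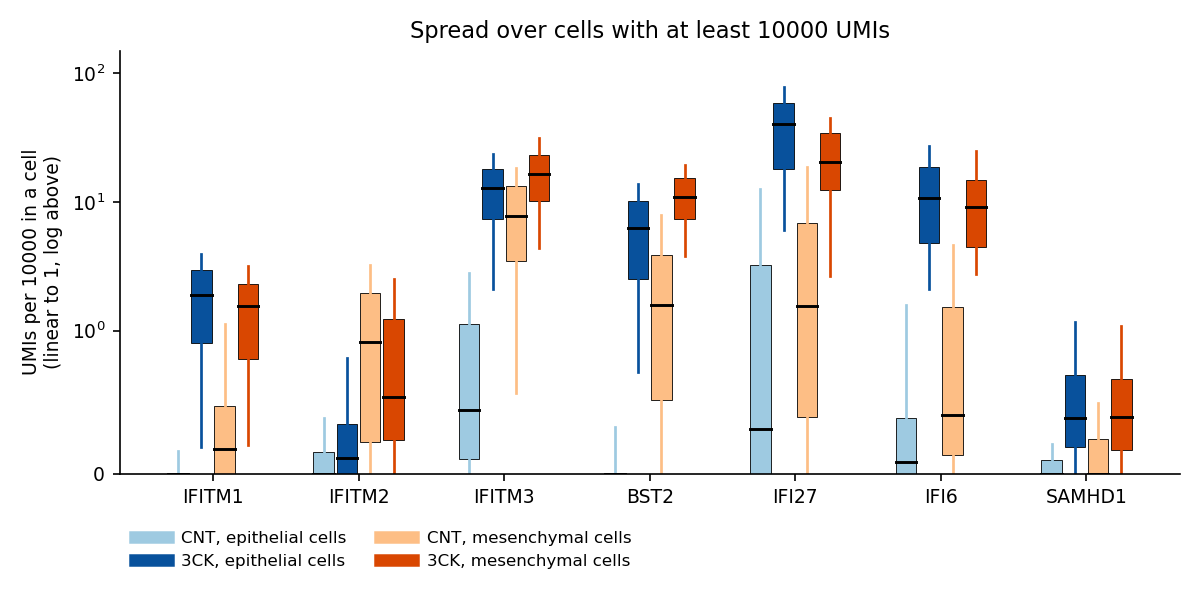
UMIs per 10000 in cells with at least 10000 UMIs (axis linear to 1 and logarithmic above), with the median as a black line, the middle 50% of cells as a box and the 10th to 90th percentile as a line, by class and library. In CNT epithelial cells the boxes end below 1 UMI per 10000 for all but IFITM3 and IFI27, and in 3CK the median is 40.1 for IFI27 and 6.23 for BST2.

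Within untreated epithelium, most of the genes were lower in cells rich in TTR, a liver-type transport protein. IFI27 was at 352 CPM in the 696 cells with at least 300 TTR UMIs per 10000 and at 874 CPM in the 60 cells with under 30, a log2 ratio of -1.31 (-1.36 to -1.26). IFI6 had 59.1 and 159 CPM in the same cells (-1.42), BST2 18.0 and 36.9 CPM (-1.04) and IFITM3 113 and 205 CPM (-0.86). IFITM2 had 12.9 and 17.9 CPM (-0.48, interval -0.81 to -0.12). IFITM1 (-0.41, interval -0.99 to 0.22) and SAMHD1 (0.12, interval -0.49 to 0.80) did not differ beyond counting error. In the 74 cells with at least 2 UMIs per 10000 of FABP2, an enterocyte fatty acid binding protein, IFI27 reached 1150.1 CPM (1122 to 1179) and BST2 stood at 19.6 CPM (16.1 to 23.7). In 3CK the order by TTR turned for IFI27, with 4781 CPM in the 151 TTR-rich and 3147 CPM in the 156 TTR-poor cells (0.60), and it appeared for SAMHD1, with 28.5 and 71.6 CPM (-1.33, interval -1.50 to -1.16). IFITM1 (0.67), IFITM3 (0.44), BST2 (0.38) and IFITM2 (0.23) were then also higher in TTR-rich cells. IFI6 was still lower there (-0.14, interval -0.17 to -0.11). These ranges cut a continuous level and are no cell types.

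IFI27 and IFI6 were also lower in cycling cells, defined by at least 5 UMIs per 10000 from 10 listed cell cycle genes, than in cells with under 1. In CNT mesenchymal cells IFI6 was at 77.2 CPM in 73 cycling and 234 CPM in 147 other cells, a log2 ratio of -1.60, and IFI27 at 417 and 973 CPM (-1.22). The same held in CNT epithelial cells, with -1.05 for IFI6 and -1.08 for IFI27, and in 3CK mesenchymal cells, with -0.71 and -1.09. In 3CK epithelial cells the ratios were smaller, at -0.29 and -0.33. Other members were lower in cycling mesenchymal cells too. IFITM1, BST2 and IFITM3 were at -0.72, -0.70 and -0.67 in CNT and at -0.29, -0.35 and -0.43 in 3CK. IFITM2 was at 0.08 (-0.07 to 0.22) and -0.54. In 3CK epithelial cells IFITM1 was at -0.45, IFITM3 at -0.26, BST2 at -0.03 (-0.08 to 0.03) and IFITM2 at 0.31. The antiviral activity of SAMHD1 is switched off by cyclin-dependent kinases in cycling cells. Its transcript was higher in cycling CNT mesenchymal cells, at 24.2 CPM against 13.4 CPM in other cells (0.85, interval 0.46 to 1.24). In 3CK epithelial cells it was at 61.0 and 47.7 CPM (0.36, 0.15 to 0.55). In CNT epithelial cells (0.38, -0.20 to 0.91) and 3CK mesenchymal cells (0.19, -0.13 to 0.52) it did not differ beyond counting error.

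Among treated epithelial cells, the 226 with at least 10 CXCL10 UMIs per 10000 had more of all 7 genes than the 307 with under 1, at median depths of 106832 and 82310 UMIs. The share of all genes higher in this split was not taken, so how unusual this is cannot be told. The log2 ratio was 0.99 for IFITM2, 0.85 for IFI6, 0.71 for IFITM1, 0.66 for IFITM3, 0.63 for BST2, 0.49 for IFI27 and 0.19 for SAMHD1. No gene reached 2-fold, and the low CXCL10 cells still had 1092 CPM of IFITM3 and 603 CPM of BST2. Between the 204 cells with at least 2 LCN2 UMIs per 10000 and the 180 with 0, IFI27 (0.55) and IFI6 (0.49) differed most, and IFITM2 (-0.00, interval -0.18 to 0.18) and SAMHD1 (-0.12, interval -0.26 to 0.02) not beyond counting error.

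The genes most like each member were found by Pearson correlation of log2(UMIs per 10000 + 1) over cells thinned to 10000 UMIs, and are named where r was at least 0.3. Such values share library and depth and describe these cells only. In CNT epithelium (1013 cells) BST2 was most like COL1A1 (r = 0.46), DCN (0.45) and LGALS1 (0.45), and IFITM3 like LGALS1 (0.42), COL1A2 (0.39) and H19 (0.39). IFI27 was instead most like IFI6 (0.48), TSPAN8 (0.48) and PHGR1 (0.48), of which TSPAN8 and PHGR1 are epithelial genes. BST2 and IFITM3 thus each had a collagen among their nearest genes, and IFI27 had the epithelial TSPAN8 and PHGR1. Collagen-positive epithelial cells were among these cells. Over the whole CNT epithelial class, BST2 had 1811 UMIs with them and 875 without. The part of mixed droplets in these correlations was not tested. IFITM1 reached no r of 0.3, and the genes nearest to it were the epithelial PHGR1 (0.23), TSPAN1 (0.21) and TSPAN8 (0.21). In CNT mesenchyme (311 cells) IFI27 and IFI6 were again most alike (0.65), with BST2 next for IFI27 (0.55), while IFITM3 was closest to RPL28 (0.75), TPT1 (0.75) and RPLP1 (0.75), genes of the translation machinery and of growth. IFITM1 and IFITM2 were each most like IFITM3 there, at 0.43 and 0.51.

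In 3CK epithelium (730 cells) BST2 no longer had collagens among its 3 nearest genes, which were IFITM3 (0.54), IFI27 (0.52) and CYBA (0.51). IFITM3 and IFI27 were near each other (0.74) and near S100A11 (0.75 and 0.74) and TMSB10 (0.74 and 0.72). IFI6 was nearest to the ubiquitin-like ISG15 (0.62), IFI27 (0.62) and B2M (0.54), and IFITM1 to IFITM3 (0.59). In 3CK mesenchyme (106 cells) BST2 was nearest to the class I antigen presentation genes B2M (0.72) and HLA-B (0.70). SAMHD1 had no gene at 0.3 or above in CNT or in 3CK epithelium, and in 3CK mesenchyme reached 0.35 with TTC28. At 0.07 to 0.54 UMIs per thinned cell its counts were sparse, which limits any correlation.

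Lists of related genes, chosen with earlier results of these data known, place the 7 among their pathways. Of 28 other antiviral restriction factors 24 had at least 1 CPM, and 16 of these were at least 2-fold higher in 3CK over all cells and in epithelial cells, 0 lower, with medians of 1.99 and 2.30. In mesenchymal cells 10 were higher and 1, SERINC5, lower (-1.46), with a median of 0.84. LY6E, a membrane-anchored inhibitor of virus entry, went from 364 to 632 CPM over all cells, a log2 ratio of 0.80. It had the highest level of the list over both libraries together. ISG20, an exonuclease with the highest level in 3CK, went from 43.4 to 675 CPM (3.96), and the GTPase GBP5 had the largest ratio, from 1.06 to 510 CPM (8.91). SERINC5, which lowers the infectivity of retrovirus particles, had the smallest, from 43.2 to 25.5 CPM (-0.76). Between classes in CNT, 11 of the 24 were at least 2-fold lower in epithelial cells and 1, ISG20, higher. The median was -0.60, against -2.83 for the 7 genes. Of all genes that reached 10 CPM, a higher minimum than for the lists, 7.88% were at least 2-fold higher in epithelial 3CK cells. In mesenchymal 3CK cells 4.8% were higher and 9.59% lower. Between classes in CNT, 21.1% were lower and 12.2% higher in epithelial cells.

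All 20 type I interferon targets listed were at least 2-fold higher in 3CK over all cells and in both classes, with medians of 4.18 over all cells, 4.82 in epithelial and 2.76 in mesenchymal cells. ISG15 was the most abundant (400.0 and 4818 CPM), OASL had the largest ratio (7.84) and IRF7 the smallest (1.87). Each of the 20 had a larger response in epithelial cells, as had 21 of the 24 restriction factors, all but APOBEC3C, LY6E and ISG20. The median epithelial minus mesenchymal difference was 1.62 for the 20 and 1.25 for the 24. Over all genes measured in both classes it was 0.18. That small offset depends on scaling, since TMM factors shifted log2 ratios by 0.03 in epithelial and 0.18 in mesenchymal cells. Of all genes that reached 10 CPM, 6.43% were at least 2-fold higher in all cells, 7.88% in epithelial and 4.8% in mesenchymal cells. Of 14 interferon signalling genes 10 were at least 2-fold higher in all cells and in epithelial cells, and 6 in mesenchymal cells. Their medians were 1.55, 1.70 and 0.38. IRF1 had the largest ratio (4.01) and the receptor chain IFNAR1 the smallest (0.10).

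Lists of genes that act on the IFITM proteins and on SAMHD1 had few or no members past 2-fold. Of all genes that reached 1 CPM, 6.96% were at least 2-fold higher and 11.3% lower over all cells, so lists this short would hold few such genes. Of 10 genes of IFITM processing and turnover, such as palmitoyl transferases and ubiquitin ligases, 0 passed 2-fold over all cells or in epithelial cells. AP2M1, an endocytosis adaptor, was the most abundant (248 and 244 CPM), ZDHHC2 had the largest ratio (0.45) and ZMPSTE24 the smallest (-0.26), and in mesenchymal cells only NEDD4L was past 2-fold (-1.12). Of 9 genes of deoxynucleotide supply and SAMHD1 phosphorylation, 0 passed 2-fold in any of the 3 comparisons, with TYMS at 75.7 and 54.0 CPM, TK1 at a log2 ratio of 0.51 and CDK2 at -0.55. Of 5 relatives of the 7 genes 3 were measured at 1 CPM or more, and 0 passed 2-fold: IFI27L1 (0.27), IFI27L2 (0.34) and IFITM10 (-0.35). IFI27L2 went from 72.6 to 92.1 CPM, beside 521 and 4163 CPM for IFI27. In mesenchymal cells IFI27L2 was at 0.91 and IFI27L1 at 0.54, close to or below the 0.89 of IFITM3, and IFITM10 at -0.83.

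**Figure D5:**
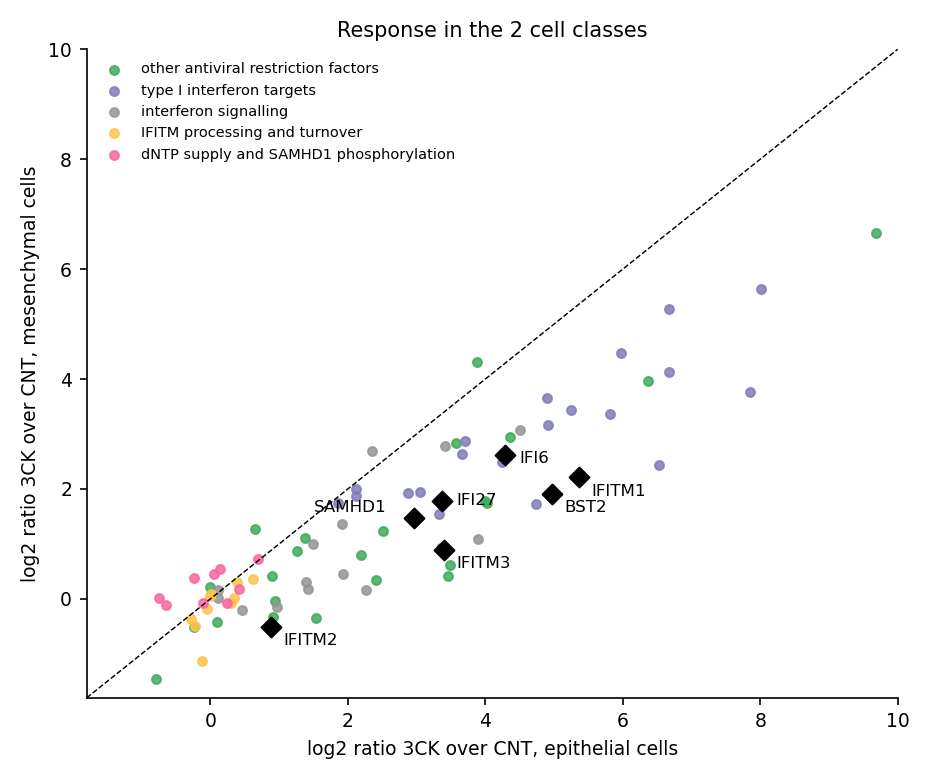
Log2 ratio of 3CK over CNT in epithelial cells (x axis) against that in mesenchymal cells (y axis), for the 7 genes (black diamonds) and the genes of 5 lists (coloured points), each reaching 1 CPM in both classes. The dashed line marks equal responses. All 7 genes lie below it, as do all 20 type I interferon targets, while the processing and deoxynucleotide lists gather near 0.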

How the data were processed

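The files are 2 filtered gene-by-barcode matrices of whole-number UMI counts, deposited by the authors without normalisation. Cell Ranger 7.1.0 and GRCh38 are named in the submitters' processing notes. Neither the annotation release nor any filter by the authors is given in the sources used here.

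Barcodes with at least 500 genes and at most 20% mitochondrial UMIs were kept (removed: 412 CNT and 52 3CK for too few genes, 306 and 175 for mitochondrial share alone). The highest Scrublet scores (scanpy 1.11.5) were removed at 0.8% per 1000 barcodes, 52 CNT and 16 3CK. UMIs were summed per library and class and divided by the total of all UMIs to give CPM. Where a sum was 0, a floor of 3 UMIs would make a ratio a bound, which no member needed. At the total depths, 3 UMIs are 0.0295 CPM in CNT and 0.0327 CPM in 3CK. Intervals are exact Poisson for sums, exact binomial for ratios and shares, and Newcombe for differences of shares. With 1 library per group no test was possible, and a difference was counted when at least 2-fold.

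The 7 members and the 6 gene lists were chosen with earlier results of these data known. The text names all members, and of each list the most abundant gene and those with the largest and smallest ratio over all cells. FABP2, LUM, DCN and POSTN were listed as markers, and SERINC5, ISG20 and NEDD4L in class counts, exceptions to the larger epithelial response, the IFI27 relatives and the comparison gene IFIT3 were named after their values were seen. Ratios were tested on simulated data. Alternatives were other cell filters, doublet rates, depth minima, TMM factors (edgeR 4.0.16), a total without the most abundant genes, equal weight per cell, other class limits, 4-fold, other CPM minima and other thinning. Python 3.11.15 and R 4.3.3 were used. Promoters are from RefSeq tables, positions from GENCODE. Some list and marker genes are not reported here.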

Additional observations from a re-analysis of the deposited data

How the results depend on the processing

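No result changed direction among the counts, and 583 of 606 alternative values of counts and background shares stayed within 1.5 times the main value. The exceptions follow, and the cause was not tested unless fewer genes or a stricter size make it plain. Genes at least 2-fold lower made up 11.3% with a minimum of 1 CPM and 16.3% with none over all cells, 12.1% and 17.5% in epithelial cells, and 16.7% and 19.2% in mesenchymal cells, and 25.4% with no minimum between classes in 3CK. At 4-fold, 2 members were higher in mesenchymal 3CK cells and 0 lower in epithelial than in mesenchymal 3CK cells. IFITM2 alone made 1 member with a share at least 10 points lower in mesenchymal 3CK cells with the stricter filter, with thinning to 10000 UMIs, and without barcodes with over 3% MALAT1 UMIs, an alternative chosen after seeing the data. In mesenchymal cells, IFITM processing genes lower in 3CK numbered 0 with the stricter filter and with TMM factors and 3 with equal weight per cell, and relatives higher numbered 1 with TMM factors and with doubled class limits. Between classes in CNT, other restriction factors higher in epithelial cells numbered 3 with TMM factors, 0 with equal weight and 2 without MALAT1-rich barcodes, those lower 7 with equal weight, and type I targets higher 1 with TMM factors and with equal weight. TMM factors shifted all log2 ratios by 0.39 between classes in CNT, 0.18 between classes in 3CK and 0.18 in mesenchymal cells, and the total without abundant genes by -0.12 in epithelial cells. Of 448 alternative values of single log2 ratios and of their differences between classes, 193 lay outside the main value's counting interval. Single log2 ratios kept their sign except those of IFITM2 over all cells and SAMHD1 between classes in 3CK, and each epithelial minus mesenchymal difference kept its sign. No paired analysis was possible because each group holds 1 library. Depth limits SAMHD1 and IFITM1 most, at 475 and 416 UMIs in CNT epithelium.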
